A study of Mus musculus with 8 samples.

Results

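The SOCS family comprises Cish and Socs1 to Socs7, the genes of the suppressor of cytokine signalling proteins, and was followed here in mouse dendritic cells under low oxygen with and without stem cell factor (SCF). Members were taken by name: every probe set whose only gene symbol was one of these 8 was kept. This gave all 8 genes, of 22180 genes named on the array, and 11 probe sets, of 23521 with 1 gene symbol and 41345 in all. Cish, Socs2 and Socs3 had 2 probe sets each, called brighter and dimmer here by their mean over all 8 arrays, and the brighter one stood for the gene when genes were counted.

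SOCS proteins are the brakes of cytokine signalling. Cytokine receptors activate JAK kinases, which phosphorylate STAT transcription factors, and STATs switch on SOCS genes. The proteins bind phosphotyrosines through an SH2 domain, and their SOCS box recruits elongins and a cullin so that bound receptors or kinases are ubiquitinated. Socs1 and Socs3 can also block JAK kinases directly. GM-CSF, the growth factor of this culture, signals through JAK2 and STAT5, and STAT5 is a classical activator of Cish and Socs2. SCF acts through the receptor tyrosine kinase Kit, to which the Socs1 and Socs6 proteins are known to bind.

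All 8 cultures were CD11c-positive wild-type cells of female C57BL/6 mice. GM-CSF at 20 ng/ml drove the growth of bone marrow cells at 21% oxygen for 7 days, and CD11c-positive cells were then purified on magnetic beads to over 98%. They were held at 2% oxygen for 2 days with the same GM-CSF in Opti-MEM medium. SCF at 100 ng/ml was then added (SCF group, 4 cultures) or left out (medium group, 4 cultures) for 6 hours. Both groups therefore carried GM-CSF, and low oxygen from purification on, and no culture without these was analysed here. The 4 experiments, BC, D2, E and I, each gave 1 medium and 1 SCF culture from the same purified cells, and the labels do not state how many mice went into each.

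Each culture was read on 1 Affymetrix array, and array medians lay between 13.3 and 13.9 on the linear intensity scale. The number of arrays limits the precision. The 9 conventional dendritic cell markers found on the arrays, CD11c (Itgax) among them, all lay above the intensity filter of 4.05 log2 units, the median of all named probe sets. So did 7 macrophage and monocyte markers, while 7 of 8 mast cell, 7 of 8 neutrophil, 3 of 4 B cell and 6 of 6 T and NK cell markers lay below it. The summed linear intensity of the macrophage and monocyte markers ran from 2091 to 2684 in medium and from 1842 to 2680 with SCF. That of the dendritic cell markers ran from 7864 to 8187 and from 8105 to 8246. Within experiments, the fitted log2 difference with SCF was below 0 for 7 of 7 macrophage and monocyte markers (median −0.05), under either scaling alternative too. Of the 7, only Adgre1 and Mertk were below 0 in all 4 experiments, and Cd68 was above 0 in 3 of 4. The fitted difference was above 0 for 8 of 9 dendritic cell markers (median 0.04), or 5 with array medians equalized. Markers of 1 cell type are no independent replicates. None of the markers passed with SCF, Mertk (−0.20, or −0.12 without BC) having the smallest p among the macrophage and monocyte ones. The part of the markers in the members' values was not tested. In RNA from whole cultures, fewer cells of a type and less RNA per cell cannot be told apart.

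The first comparison asked whether 6 hours of SCF altered the RNA of these feedback genes. All 11 member probe sets lay above the filter and were tested with experiment as a block. None passed an adjusted p of 0.05 in limma, nor did any of all 12668 probe sets tested (0%). Fitted folds of the members ran from 0.947 for Socs5 to 1.13 for the dimmer Cish probe set. Every 95% interval of the 11 lay between 0.864-fold and 1.24-fold. With the pairing ignored, the SCF and medium arrays overlapped for 11 of 11 member probe sets. The share of all tested probe sets that overlap was not counted, so this says nothing particular to the members. The median log2 difference over the 8 genes was 0.02, against 0.00077 over all probe sets tested, with 4 genes above 0 and 4 below.

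**Figure D1:**
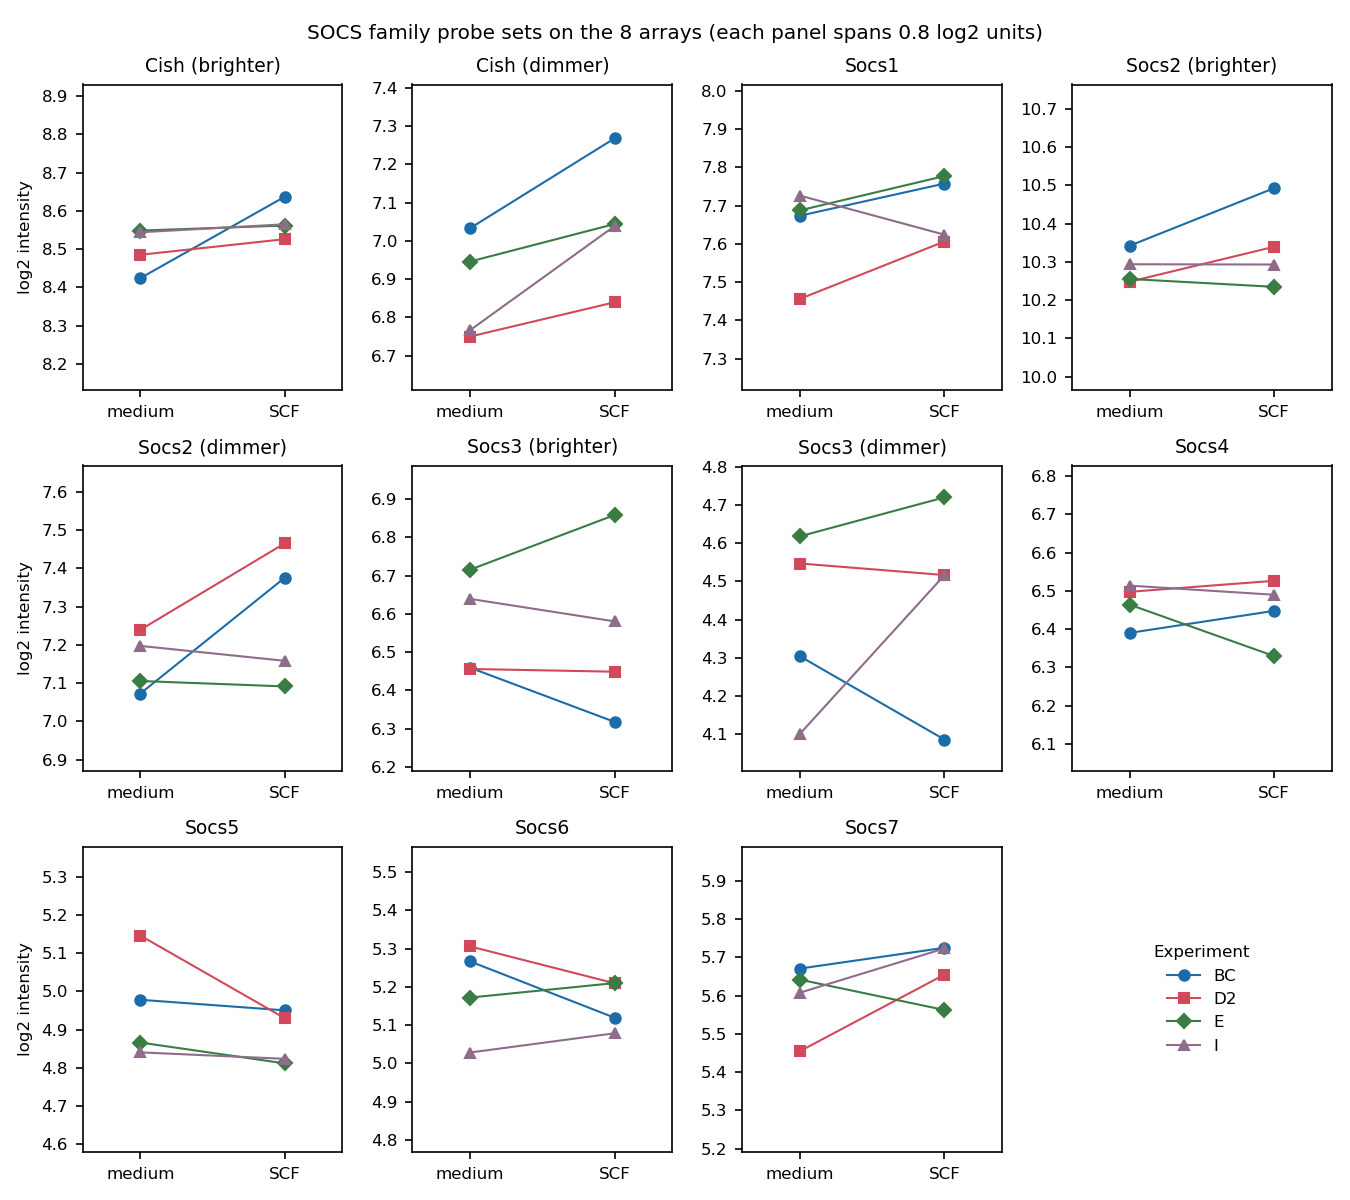
Log2 intensity of each member probe set (vertical axis) in medium and SCF cultures (horizontal axis), with the pair of each experiment joined by a line. Every panel spans 0.8 log2 units at its own level, so heights are not comparable between genes. Both Cish probe sets have all 4 lines sloping upward, although the groups overlap in all 11 panels.

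Cish, which competes with STAT5 for docking sites on cytokine receptors, was above 0 in 4 of 4 experiments with both of its probe sets. Its brighter probe set read 8.42, 8.49, 8.55 and 8.54 log2 units in medium in BC, D2, E and I. With SCF it read 8.64, 8.53, 8.56 and 8.56. The medium array of BC was the lowest of the 8 and the SCF array of BC the highest. The log2 difference was 0.07 (SE 0.06, 95% interval −0.06 to 0.20, limma adjusted p = 0.945). It rested on BC, where it was 0.21 against 0.01 to 0.04 in the other experiments, and was 0.02 without BC.

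The dimmer Cish probe set read 7.03, 6.75, 6.95 and 6.77 log2 units in medium and 7.27, 6.84, 7.04 and 7.04 with SCF. The pairs differed by 0.23 (BC), 0.09 (D2), 0.10 (E) and 0.27 (I), so that BC and I differed most. The fitted log2 difference was 0.17 (SE 0.06, 95% interval 0.04 to 0.31), the largest of the 11. Its unadjusted p of 0.0168 became 0.945 after limma's adjustment over all probe sets, of which 4.21% had an unadjusted p under 0.05. Across the 11 it was the only one under that level (9.09%). The exact two-sided sign-flip permutation test over the 4 pairs gave 0.125 for either Cish probe set, the smallest p it allows. The probe sets differed most in experiment I, with 0.02 for the brighter and 0.27 for the dimmer one. Of the 11 member probe sets, these 2 were above 0 in all 4 experiments (18.2%, against 6.43% of all tested, while 12.9% of all tested had the same sign in all 4 in either direction). Both read 1 gene in the same RNA, so the 18.2% counts that gene 2 times. With array medians equalized, the brighter one was above 0 in 3 of 4.

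The promoter of Cish is shown because STAT5 activates this gene through paired sites, and because Cish was the only member gene above 0 in all experiments. RefSeq's sequence of assembly GRCm38.p6 at chr9:107296409-107296708, plus strand, runs from 250 bases before the annotated start to 50 after it. Capitals mark matches to the STAT motif TTCNNNGAA, which reads the same on both strands:
Cish: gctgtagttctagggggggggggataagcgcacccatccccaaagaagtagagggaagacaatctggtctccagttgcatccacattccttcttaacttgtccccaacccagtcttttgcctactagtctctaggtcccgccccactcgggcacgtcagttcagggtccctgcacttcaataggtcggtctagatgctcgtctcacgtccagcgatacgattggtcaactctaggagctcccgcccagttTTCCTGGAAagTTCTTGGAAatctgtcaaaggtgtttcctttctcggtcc
The window holds 2 matches, TTCCTGGAA at bases 251 to 259 and TTCTTGGAA at bases 262 to 270, counted from the window's first base. They do not overlap. Base 251 is the annotated start, so by this annotation both lie at or after it. Of 32851 promoter windows of the same length in the RefSeq table, 8.3% held at least 1 match and 0.457% at least 2. A match describes the letters and is not evidence of binding in these cells.

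Socs2, another STAT5-induced gene, whose protein restrains growth hormone signalling, differed by more in BC and D2 than in E and I. The brighter probe set read 10.34, 10.25, 10.26 and 10.29 log2 units in medium in BC, D2, E and I, and 10.49, 10.34, 10.23 and 10.29 with SCF. The dimmer one read 7.07, 7.24, 7.11 and 7.20 in medium and 7.38, 7.47, 7.09 and 7.16 with SCF. The brighter probe set differed by 0.15 (BC), 0.09 (D2), −0.02 (E) and −0.00076 (I). Those of the dimmer one had the same signs, at 0.30, 0.23, −0.01 and −0.04. The fitted log2 difference was 0.06 for the brighter (SE 0.05, 95% interval −0.07 to 0.18, limma adjusted p = 0.949) and 0.12 for the dimmer (SE 0.07, 95% interval −0.05 to 0.29, limma adjusted p = 0.945). Without BC these were 0.02 and 0.06.

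Socs1, the inhibitor of JAK kinases that limits interferon signalling and dendritic cell activation, was above 0 in 3 of 4 experiments. It read 7.67, 7.46, 7.69 and 7.73 log2 units in medium in BC, D2, E and I, and 7.76, 7.61, 7.78 and 7.62 with SCF. Experiment I, the highest in medium, was the only one that was lower with SCF (−0.10), while D2, the lowest in medium, had the largest difference (0.15). Each difference contains its medium value, so these orders are linked by construction. The fitted log2 difference was 0.06 (SE 0.06, 95% interval −0.08 to 0.19, limma adjusted p = 0.956), or 0.11 without I and 0.02 without D2. The 300-base RefSeq window of Socs1 held 0 matches to TTCNNNGAA.

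Socs3, the feedback inhibitor of receptors that signal through gp130 and of the G-CSF receptor, showed no shared direction. Its brighter probe set read 6.46, 6.46, 6.72 and 6.64 log2 units in medium in BC, D2, E and I, and 6.32, 6.45, 6.86 and 6.58 with SCF. It differed by −0.14 in BC and 0.14 in E, and the fitted log2 difference was −0.02 (SE 0.06, 95% interval −0.16 to 0.13, limma adjusted p = 0.989), turning to 0.03 without BC. The dimmer probe set read 4.30, 4.55, 4.62 and 4.10 in medium and 4.09, 4.52, 4.72 and 4.52 with SCF, some values lying close to the filter. Here I differed by 0.41 and BC by −0.22, the extremes of all member differences. Its fitted log2 difference was 0.07 (SE 0.10, 95% interval −0.16 to 0.30, limma adjusted p = 0.963), or −0.05 without I. In experiment I the 2 probe sets of Socs3 differed in sign, at −0.06 and 0.41.

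**Figure D2:**
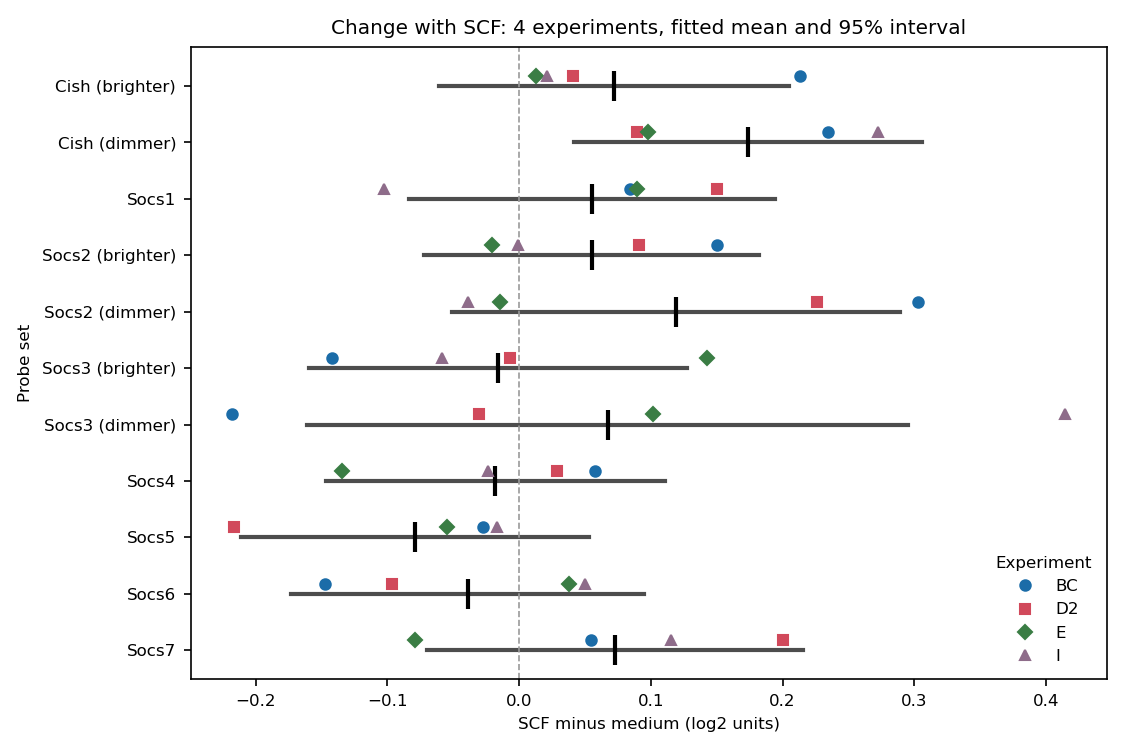
SCF minus medium difference in log2 units (horizontal axis) for each member probe set (vertical axis). Coloured symbols are the 4 experiments, black ticks the fitted means and grey bars their unadjusted 95% intervals. Only the bar of the dimmer Cish probe set (0.04 to 0.31) lies clear of 0, and the widest scatter is that of the dimmer Socs3 probe set (−0.22 to 0.41).

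Socs4 and Socs5, whose proteins act on the epidermal growth factor receptor, both had fitted differences below 0. Socs5 read 4.98, 5.15, 4.87 and 4.84 log2 units in medium in BC, D2, E and I, and 4.95, 4.93, 4.81 and 4.82 with SCF. All 4 pairs were below 0, but D2 accounted for most of this at −0.22, against −0.05 to −0.02 elsewhere. The fitted log2 difference was −0.08 (SE 0.06, 95% interval −0.21 to 0.05, limma adjusted p = 0.945), or −0.03 without D2. Of the 11 member probe sets it was the 1 below 0 in all experiments (9.09%, against 6.44% of all tested), and with array medians equalized it was below 0 in 3 of 4. Socs4 stayed between 6.33 and 6.53 on all 8 arrays, a range of 1.15-fold and the narrowest of the 11. Its log2 difference was −0.02 (SE 0.06, 95% interval −0.15 to 0.11, limma adjusted p = 0.987), turning to 0.02 without E.

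Socs6 and Socs7 encode proteins that bind insulin receptor substrates and other partners of tyrosine kinase receptors. Socs6, whose protein binds Kit, ranged from 5.03 to 5.31 log2 units over the 8 arrays. It differed by −0.15 in BC and −0.10 in D2 but by 0.04 in E and 0.05 in I. The fitted log2 difference was −0.04 (SE 0.06, 95% interval −0.17 to 0.10, limma adjusted p = 0.963). It ran from −0.0027 without BC and −0.02 without D2 to −0.06 without E and −0.07 without I, and was −0.06 with quantile normalization repeated. Socs7 ranged from 5.45 to 5.73 and was above 0 in 3 of 4 experiments, with 0.20 in D2 and −0.08 in E. Its log2 difference was 0.07 (SE 0.06, 95% interval −0.07 to 0.22, limma adjusted p = 0.945), or 0.03 without D2 and 0.12 without E.

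A second comparison asked how far the same genes differed between the 4 experiments, using limma's F test over experiments with the group as a term. The residual spread is that between the 2 arrays of an experiment, which share their cells, so the test compares these batches of cells and arrays. Animals, day and RNA preparation cannot be told apart. Of all probe sets tested, 424 passed (3.35%), and 0 of 11 member probe sets did. At an unadjusted p under 0.05 there were 3 member probe sets (27.3%), against 24.2% of all tested. These were the dimmer Cish probe set and both probe sets of Socs3. The median range of experiment means was 0.19 log2 units over the 8 genes, against 0.20 over all tested.

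Socs3 came closest to passing. The experiment means of its brighter probe set were 6.39 (BC), 6.45 (D2), 6.79 (E) and 6.61 (I), a spread of 1.32-fold (limma F adjusted p = 0.0967). Its range of experiment means was at least as large as that of 88.4% of all tested probe sets. The adjusted p was 0.0462 with a variance trend, where 12.1% of all tested passed, and 0.0234 with a stricter intensity filter, where 22% passed; over its alternatives it ran from 0.0234 to 0.280. The dimmer probe set also had its highest mean in E and its lowest in BC, at 4.20, 4.53, 4.67 and 4.31 (limma F adjusted p = 0.18). The sum of the macrophage and monocyte markers was likewise highest in E, as were 6 of the 7 markers, with Ly6c2 highest in I. Of the 7, Fcgr1, Ly6c2 and Cd14 passed limma's F test (42.9%, against 3.35% of all tested). Without E none of these passed (limma F adjusted p = 0.163, 0.0504 and 0.125). Fcgr1 also did not pass without I (0.0930) or with no intensity filter (0.0519), nor did Ly6c2 without BC (0.0894). The summed macrophage and monocyte intensities averaged 2682 in E, against 1997 in BC, 2143 in D2 and 2098 in I. The sum of the dendritic cell markers was highest in E too, at 8171, against 7984 in BC, 8043 in D2 and 8136 in I. The part of either set of markers in the Socs3 values was not tested.

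**Figure D3:**
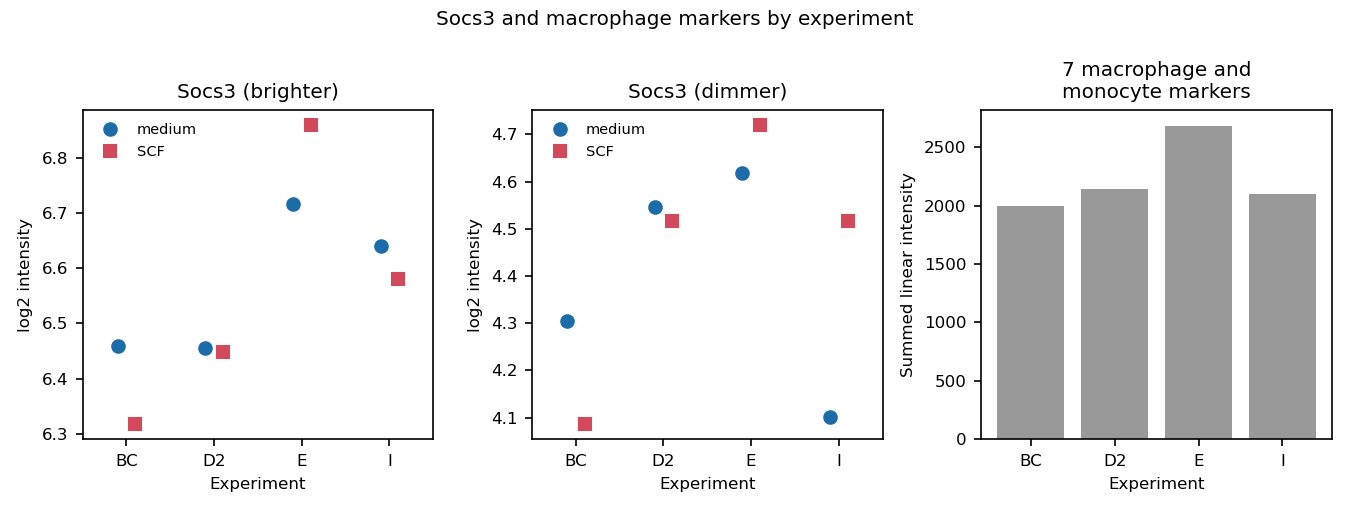
Log2 intensity of the brighter and dimmer Socs3 probe sets in the medium and SCF culture of each experiment (left and middle), and the summed linear intensity of 7 macrophage and monocyte markers as the mean of both arrays of an experiment (right). Experiment E is highest in all 3 panels, with Socs3 means of 6.79 and 4.67 and a marker sum of 2682.

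The promoter of Socs3 is shown because Socs3 was the member that varied most between experiments. RefSeq's sequence of GRCm38.p6 at chr11:117969317-117969616, minus strand, covers the same stretch around the annotated start, with capitals for TTCNNNGAA:
Socs3: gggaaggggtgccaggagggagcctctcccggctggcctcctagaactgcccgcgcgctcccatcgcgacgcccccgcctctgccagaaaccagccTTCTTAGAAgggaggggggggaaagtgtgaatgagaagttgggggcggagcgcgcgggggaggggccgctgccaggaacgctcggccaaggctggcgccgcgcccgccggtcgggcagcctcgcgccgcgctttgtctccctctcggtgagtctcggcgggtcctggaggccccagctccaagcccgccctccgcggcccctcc
It holds 1 match, TTCTTAGAA, at bases 97 to 105 of the window, before the annotated start, where Cish has 2 at or after its own. The match describes the letters, and whether this site controls Socs3 was not tested. Windows were kept for 4 members, Cish, Socs1, Socs3 and Socs4, and those of Socs1 and Socs4 held 0 matches.

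The remaining members did not pass either. The brighter Cish probe set had experiment means of 8.53 (BC), 8.51 (D2), 8.56 (E) and 8.55 (I), the smallest spread of the 11 (1.03-fold, limma F adjusted p = 0.945). The dimmer one spread over 1.28-fold, from 6.79 in D2 to 7.15 in BC (limma F adjusted p = 0.117), and had an adjusted p of 0.0310 with the stricter filter. The brighter Socs2 probe set was highest in BC (10.42) and lowest in E (10.25), and Socs1 was lowest in D2 (7.53) and highest in E (7.73). Adjusted p-values of the other members' F tests in limma lay between 0.272 and 0.592.

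Among the probe sets that stand for the 8 genes, those of Socs3, Socs5 and Socs1 had the largest ranges over the 8 arrays (0.54, 0.33 and 0.32 log2 units), while the dimmer probe sets of Cish (0.52) and Socs2 (0.39) were not considered. Genes with patterns most like these 3 were found by the mean absolute difference of log2 values, each centred on its own mean, over the 8 arrays. For Socs3 the nearest of 11350 genes were the macrophage lysosomal glycoprotein gene Cd68 (0.037 log2 units), the chemerin receptor gene Cmklr1 (0.039) and the inhibitory lectin gene Cd22 (0.045), where the median gene stood at 0.16. For Socs5 they were Rnf138 (0.027), Hps5 (0.032) and Tmem243 (0.033), against a median of 0.12. For Socs1 they were Apba1 (0.019), Prpf4 (0.024) and Rab43 (0.026), against 0.11. The 8 arrays share experiments in pairs, so these distances describe a likeness and carry no test.

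Genes of proteins that work with the family did not pass the test with SCF either. Of 7 tested elongin and cullin partners of the SOCS box, 0 passed, and their median log2 difference was −0.0073, with the elongin C gene Eloc at −0.14 (SE 0.08) and the cullin gene Cul2 at −0.09 (SE 0.05). Without D2, where Eloc differed by −0.45 and Cul2 by −0.20, they were at −0.04 and −0.05. Among 16 tested genes of other SOCS box proteins 0 passed, with a median of 0.0021. Wsb1, a SOCS box protein with WD40 repeats, was at −0.16 (SE 0.05, limma adjusted p = 0.945) and below 0 in 4 of 4 experiments. Spsb2 was at 0.06 (SE 0.05) and above 0 in 4 of 4, or 0.03 without BC. Of 16 other inhibitors of JAK-STAT signalling 0 passed (median 0.02), with Sh2b3, an adaptor that binds JAK2, at 0.09 (SE 0.05) and Cbl, a ubiquitin ligase of Kit, at 0.08 (SE 0.05).

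Genes listed as targets of STAT5 and STAT3 outside the family also passed in 0 cases. The lists do not mark whether a target is raised or lowered by its STAT. Of 12 STAT5 targets, 7 were above 0 with a median of 0.01, or 4 with the array medians equalized, and the smallest p-values were those of the cyclin gene Ccnd1 at −0.12 (SE 0.07) and of Myc at −0.07 (SE 0.05), which were at −0.05 and −0.05 without BC. Of 10 STAT3 targets 5 were above 0 (median 0.02). Sbno2 at 0.12 (SE 0.05) and Bcl3 at 0.11 (SE 0.05) had the smallest p-values, both above 0 in 4 of 4 experiments. Cebpb had the difference largest in size, at −0.14 (SE 0.07), and was below 0 in 4 of 4, with −0.40 in BC. These genes share regulators and are no independent replicates.

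Among the receptors that SOCS proteins restrain, 18 were tested and 0 passed, with a median log2 difference of 0.02. Il3ra, the interleukin 3 receptor chain, was at 0.13 (SE 0.05, limma adjusted p = 0.945) and above 0 in all 4 experiments, and Il4ra was at 0.08 (SE 0.05). The GM-CSF receptor chains Csf2ra and Csf2rb stood at −0.03 (SE 0.07) and −0.0080 (SE 0.06). Kit was at −0.04 (SE 0.06).

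Between experiments, 8 of the 78 genes tested in these lists passed the F test in limma (10.3%, against 3.35% of all probe sets tested). The sets are unlike, as each of the 78 is the brightest probe set of its gene. The share depends on intensity, and 22% passed with the stricter filter. Of the 8, 7 passed with array medians equalized and 4 with no intensity filter. They were the ISG15 protease gene Usp18, Wsb1, Ccnd1, Bcl2, Myc, Bcl3, the transcription factor gene Cebpb and Kit, with adjusted p-values from 0.0271 to 0.0491. Usp18 was highest in E at 9.32 and lowest in BC at 8.78, and Ccnd1 (7.98 and 7.20) and Cebpb (6.94 and 6.11) had the same extremes. Kit was highest in I at 6.96 and lowest in D2 at 6.41. Without BC, without D2 and without E, 0 of the 8 passed, and without I 4 did.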

How the data were processed

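The deposited values are intensities, 1 for each probe set on each array. Per the submitters' processing notes, the authors used RMA. Its version, software and filters, and any genome build, were not given in the sources used here. Values were linear, as their range showed, so log2 was taken with no pseudocount. RMA pulls arrays to a shared distribution and gives no detection call, so signal over background is unknown. Of the probe sets, 23521 had 1 gene symbol in the platform annotation, 1814 several and 16010 none; 23328 of the first matched RefSeq by Entrez number. Those with a symbol and a mean of at least 4.05 log2 units, 12668 in all, were tested in limma 3.58.1 (R 4.3.3; lmFit, eBayes, experiment as a fixed block, 3 residual degrees of freedom, two-sided, Benjamini-Hochberg, threshold 0.05). The arrays pair by experiment because its cells were split, per the labels' design text; deviations from group means correlated at 0.36 to 0.46 within experiments. The fits were tested on simulated data, where 9.1% of changes of 0.25 log2 units were recovered, 84.9% of 0.5 and 99.3% of 1. The largest member difference was 0.17, so 0 calls do not exclude changes of the sizes seen in the members.

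The members and gene lists were chosen with earlier results of these data known. Named genes were every member, and from each list of related genes those that passed or, where none did, the 2 with the smallest p. Cell type markers did not follow this rule, and the GM-CSF receptor chains were named after their values were seen. Samples were grouped by their titles. Alternatives were no or a random replicate block, other intensity filters, other scalings, a variance trend, the mean of a gene's probe sets and each experiment left out. The result of 1 further gene list is not reported here.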

Additional observations from a re-analysis of the deposited data

How the results depend on the processing

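With SCF, 0 probe sets and 0 member probe sets passed in limma in the fit reported, and also under no replicate block, a random replicate block, no or a stricter intensity filter, equalized array medians, repeated quantile normalization, a variance trend, the mean of a gene's probe sets, and each experiment left out. The block by experiment, which pairs the arrays, thus changed no call (0 without the replicate block). Before adjustment 533 probe sets had a p under 0.05. The scalings and left-out experiments, the settings that can move a member's log2 difference, kept its sign in 63 of 66 recomputations. The other 3 were single experiments left out: the range was −0.069 to 0.026 for the brighter Socs3 probe set, −0.049 to 0.162 for the dimmer one and −0.043 to 0.021 for Socs4. The recomputations share most or all of their arrays with the fit reported, so much of the agreement in sign is built in. Sizes moved where signs did not, as for Socs6, which ran from −0.069 to −0.0027. As the mean of a gene's probe sets, Cish was at 0.12, Socs2 at 0.09 and Socs3 at 0.03 (limma adjusted p from 0.948 to 0.986).

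Calls between experiments depended more on the setting. They numbered 424 in the fit reported, 194 with no intensity filter, 1396 of 6334 with the stricter filter and 1527 with the variance trend, and 40 to 176 with 1 experiment left out. Member calls were 0, but 2 of 7 with the stricter filter (Socs3 brighter and Cish dimmer) and 1 of 11 with the variance trend (Socs3 brighter). Fewer experiments leave the F test fewer degrees of freedom; the cause of the other shifts was not tested. Low intensities limit the dimmer Socs3 probe set, at a mean of 4.43 against the filter of 4.05. Equalized medians moved the median of all log2 differences to −0.02.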
